A study of Mus musculus with 9 samples.

Results

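This comparison sets mouse melanoma tumours whose cells carried the second of a pair of short hairpin RNAs against Fbxo38 (hairpin 2) beside tumours whose cells carried a control hairpin. Its members are the 3 libraries titled for hairpin 2 and the 3 titled as control, 6 of the 9 libraries in the series, and all 14193 genes with enough counts were tested. B16-F10 cells, a pigmented mouse melanoma line, were grown as subcutaneous tumours in C57BL/6 hosts, and bulk RNA was sequenced from tumours taken on day 16. The other 3 libraries are labelled hairpin 1 and lie outside the contrast. They enter through the choice of genes tested, the scaling, the removal of length and GC trends and the shared estimate of spread. Their values are also set beside those of hairpin 2. The genotype labels name FBXO41, FBXO42 and FBXO43 knockdown for the 3 hairpin 2 samples and wild type for the controls, so groups were taken from the titles. The labels do not say that replicates came from separate animals, so the p-values below measure the spread between these samples, which may be technical.

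Fbxo38 encodes an F-box protein, the part of an SCF (Skp1, cullin, F-box) ubiquitin ligase that binds the substrate and brings it to the ligase for tagging. It is known for marking the checkpoint receptor PD-1 for degradation in T cells and as a coactivator of the transcription factor KLF7. In these tumours the hairpin sat in the melanoma cells, while the RNA came from the whole tissue, host cells included. A bulk library cannot tell fewer cells of a type apart from less RNA per cell.

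Fbxo38 was lower in every hairpin 2 library than in every control. It stood at 21.7, 31.3 and 30.8 CPM (counts scaled to 1000000 per library) in control replicates 1 to 3 and at 20.96, 11.4 and 11.9 CPM in hairpin 2 replicates 1 to 3. Replicate 1 of hairpin 2 lay just under replicate 1 of control, and the other two hairpin 2 libraries lay far below all controls. On the log2 scale hairpin 2 minus control was -0.92 (SE 0.29, 95% interval -1.56 to -0.28), which puts hairpin 2 at 52.8% of control (33.9% to 82.4%). The edgeR quasi-likelihood test gave an unadjusted p of 0.00964 and a Benjamini-Hochberg adjusted p of 0.254 over all tested genes, and DESeq2 gave an adjusted p of 0.0569. An exact permutation test (two-sided) gave p = 0.1, and no smaller p is possible with 3 against 3. By p, Fbxo38 ranked 534th of all tested genes. In the libraries labelled hairpin 1 it stood at 35.1, 20.99 and 22.03 CPM, and the difference of hairpin 2 from them was -0.82 (SE 0.29, edgeR unadjusted p = 0.0171). Over all genes, that second comparison, which shares the hairpin 2 libraries, had 0 genes past an adjusted p of 0.05, with 912 higher (6.43%) and 743 lower (5.23%) at an unadjusted p under 0.05. Fbxo42, named in a genotype label, differed from control by 0.01 (SE 0.15), with libraries that overlapped. Fbxo41 gave 8, 13 and 9 counts in control and 24, 25 and 16 with hairpin 2, a log2 fold change of 1.09 (SE 0.55, edgeR unadjusted p = 0.0757). Fbxo43 was at 0 CPM in all 3 hairpin 2 libraries and in 2 of the 3 controls.

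Library totals ran from 15322163 to 17342554 counts. The genes that define melanocytes were abundant: Tyrp1 stood between 6081 and 9659 CPM and Dct between 6656 and 7569 CPM over the 6 libraries. Keratinocyte genes were near absent, with Krt5, Krt14, Krt1, Krt15, Lor, Krtdap and Trp63 at 0 counts in all 6. Replicate 2 of hairpin 2 stood apart, at 54.8 on the first principal component (35.8% of the variance) against 21.5 and -25.8 for the other hairpin 2 libraries and -30.7 to 15.4 for the controls. So did replicate 1 labelled hairpin 1, at -60.6. It lies outside the contrast but enters the choice of genes tested, the scaling and the shared spread. Without it 1305 genes were higher and 1135 lower at an unadjusted p under 0.05. Without both libraries these counts were 784 and 682, against 1156 and 890 with all libraries. Globin transcripts took 2.04% of the counts in replicate 2 of hairpin 2. They took 0.0429% and 0.0497% in the other hairpin 2 libraries and 0.251% to 0.481% in the controls.

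**Figure D1:**
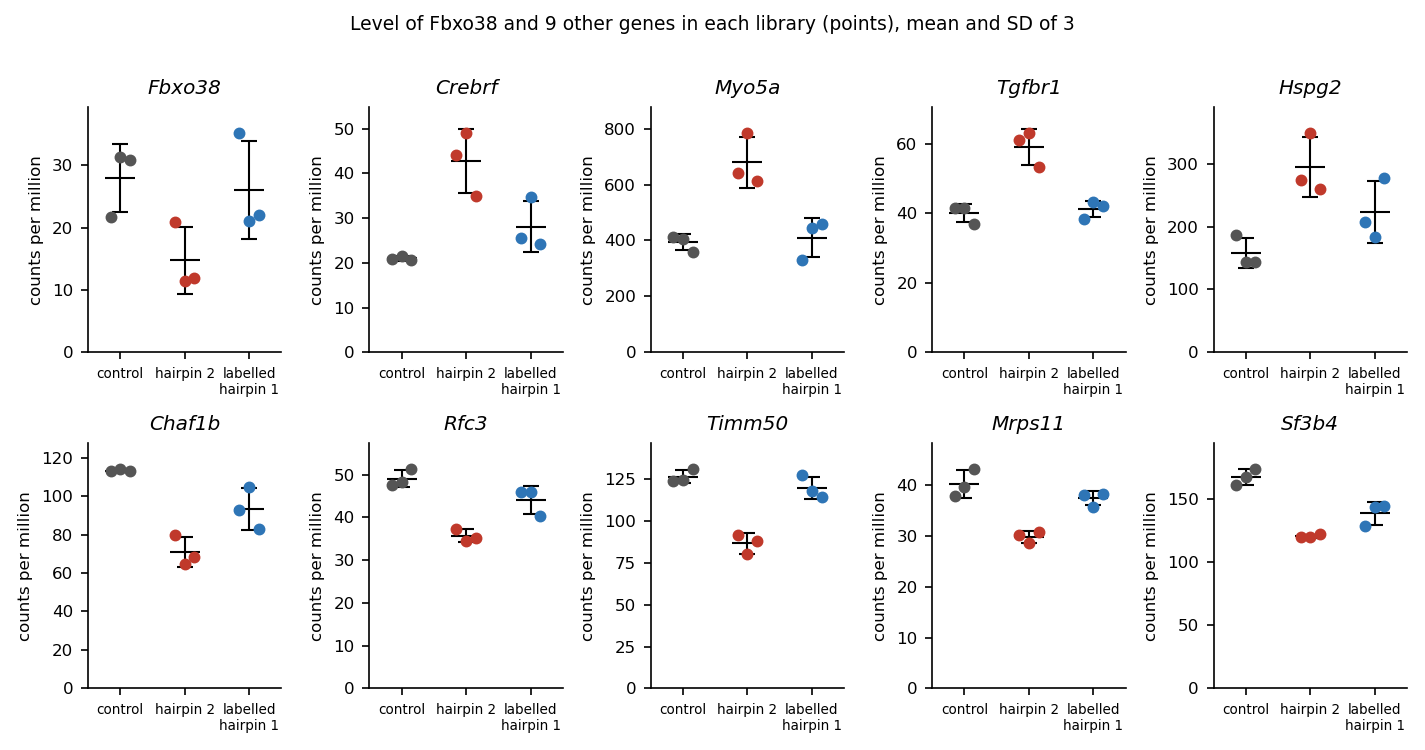
Level of Fbxo38 and 9 other genes in CPM (vertical axes, from 0), with 1 point per library and the mean and SD of each group of 3. Fbxo38 in the hairpin 2 libraries reached 20.96 CPM at most, against 21.7 CPM in the lowest control. The other 9 genes were picked from those of smallest p, over all genes or in a list. Their hairpin 2 and control points do not overlap either, which that choice made likely. Over all tested genes 20.9% did not overlap.

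No gene passed an adjusted p of 0.05 in edgeR (0% of 14193 genes tested), the lowest such value being 0.241. In all, 2046 genes (14.4%) had an unadjusted p under 0.05, 1156 higher with hairpin 2 (8.14%) and 890 lower (6.27%). The hairpin 2 and control libraries did not overlap at 2961 genes (20.9%), 1511 of them higher (10.6%) and 1450 lower (10.2%). DESeq2 called 303 genes at an adjusted p under 0.05 (2.13%), 157 higher (1.11%) and 146 lower (1.03%), and all 303 were at an unadjusted p under 0.05 in edgeR. Without filtering low counts edgeR called 4 genes, Myo5a, Ubn2, Eva1b and Crebrf, and without replicate 1 of hairpin 2 it called 2, Cdk2ap1 and Mgp, all 6 named after their values were seen. The count of higher genes was 655 without replicate 2 of control, to 653 without replicate 3 of control and to 579 without replicate 2 of hairpin 2. The count of lower genes was 484 without replicate 3 of control and 534 without replicate 2 of hairpin 2. Because no gene passed the adjusted threshold in the fit of all libraries, the accounts below describe levels and differences, with counts read beside these background shares.

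The differences followed the length of the transcript, except among the shortest transcripts. Genes were split into 10 equal bins of transcript length. In the bin of the longest transcripts (6649 bases and more), 32.15% were higher with hairpin 2 at an unadjusted p under 0.05 and 1.63% were lower. In the bin of 1113 to 1732 bases, 2.41% were higher and 13.13% lower. The median log2 fold change went from -0.16 in that bin to 0.32 in the longest. The bin of the shortest transcripts (57 to 1112 bases) had a median of -0.09, with 1.21% higher and 6.25% lower. Across 14090 genes of 1 comparison, the rank correlation (Spearman's rho) of the fold change was 0.37 with length and -0.25 with GC content; genes are not independent replicates. Replicates 1 and 2 of hairpin 2 against each control gave a rho of 0.269 to 0.336 with length, and replicate 3 gave 0.078 to 0.232. Pairs of controls gave -0.042 to 0.146. With each library's trend in length and GC removed, 678 genes were higher (4.78%) and 675 lower (4.76%) at an unadjusted p under 0.05, and rho with length was -0.002. The part of length or GC in any one gene's difference was not tested, so values with the trend removed are given beside the groups described.

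**Figure D2:**
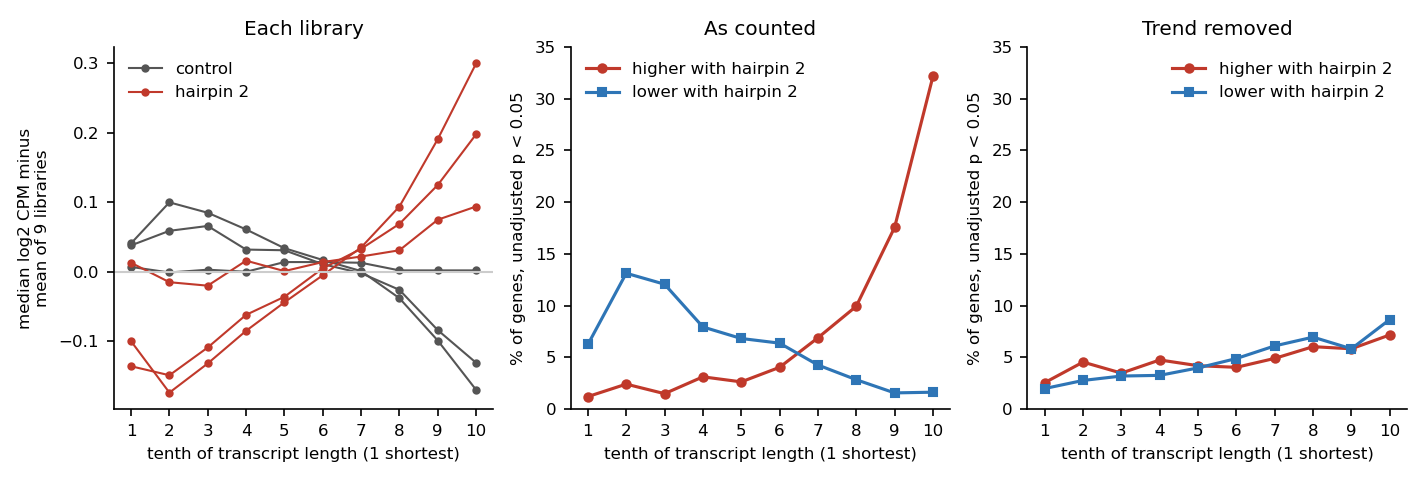
Left, the median log2 CPM of the genes in each of 10 bins of transcript length, minus the mean of 9 libraries, with 1 line per control or hairpin 2 library; centre and right, the percentage of genes at an unadjusted p under 0.05 as counted and with each library's trend removed. As counted, the share of higher genes climbs to 32.15% in the longest bin; with the trend removed it is 7.17% there.

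Genes that copy DNA stood lower with hairpin 2 on the median. Of the 33 tested genes of the replication list, 30 had a negative log2 fold change, 10 were lower at an unadjusted p under 0.05 and 0 were higher, with a median of -0.21 against 0.01 over all tested genes. Rfc3 encodes a subunit of the clamp loader that places PCNA on DNA. It stood at 47.6, 48.2 and 51.3 CPM in control and at 37.4, 34.5 and 35.2 CPM with hairpin 2, with no overlap (log2 fold change -0.46, SE 0.10, edgeR unadjusted p = 0.00122). Mcm5, a subunit of the helicase that opens the double strand, stood at 316, 292 and 315 CPM in control and at 245, 250 and 239 CPM with hairpin 2 (-0.33, SE 0.10). Cyclin E1 (Ccne1), which drives entry into S phase, stood at 52.5, 51.0 and 54.0 CPM against 42.0, 34.2 and 38.7 CPM (-0.45, SE 0.11). The abundant helicase subunit Mcm2 overlapped between the groups, at 646, 623 and 601 against 556, 637 and 555 CPM (-0.10, SE 0.11). After removal of that trend the list's median was again -0.21 and 13 members were lower. As counted, the number lower was 6 without replicate 3 of control and 6 without replicate 3 of hairpin 2. The list's mean log2 CPM, relative to the control mean, lay at -0.077, -0.212 and -0.325 in hairpin 2 replicates 1 to 3. In the libraries labelled hairpin 1 it lay at -0.324, -0.167 and -0.168, so the lower level was not particular to hairpin 2. Mcm5 stood at 224, 275 and 254 CPM there, overlapping the hairpin 2 libraries. Rfc3 stood at 45.9, 46.1 and 40.3 CPM there, above all 3 hairpin 2 libraries.

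Replication genes are textbook targets of the E2F factors, and the promoters of 2 members and of Cdk1 are shown for the letters of the E2F motif in them. The sequences are the 250 bases before the start site in RefSeq, build GRCm38.p6, with TTTCGCGC or TTTGGCGC on either strand in capitals; in Mcm5 a match on each strand overlaps the other. They lie at chr5:151651209-151651458 (minus strand) for Rfc3, chr8:75109259-75109508 (plus strand) for Mcm5 and chr10:69352913-69353162 (minus strand) for Cdk1.
Rfc3: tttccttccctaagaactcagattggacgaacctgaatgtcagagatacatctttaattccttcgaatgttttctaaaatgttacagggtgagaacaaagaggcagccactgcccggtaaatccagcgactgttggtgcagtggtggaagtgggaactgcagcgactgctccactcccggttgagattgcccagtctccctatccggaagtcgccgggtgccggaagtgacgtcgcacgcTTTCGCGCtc
Mcm5: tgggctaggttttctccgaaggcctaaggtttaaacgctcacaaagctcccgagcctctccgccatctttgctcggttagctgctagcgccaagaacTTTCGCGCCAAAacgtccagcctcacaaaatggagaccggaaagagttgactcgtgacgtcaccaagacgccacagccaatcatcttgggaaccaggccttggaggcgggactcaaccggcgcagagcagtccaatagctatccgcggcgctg
Cdk1: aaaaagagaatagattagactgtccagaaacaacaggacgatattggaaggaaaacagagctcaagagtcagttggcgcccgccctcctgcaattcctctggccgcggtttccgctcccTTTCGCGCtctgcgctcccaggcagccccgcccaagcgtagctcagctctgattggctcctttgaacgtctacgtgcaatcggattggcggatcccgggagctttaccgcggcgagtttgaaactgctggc
Of the 26 replication genes with a promoter in the table, 10 (38.5%) held a match, against 180 of 10278 tested genes with a promoter (1.75%). For mitosis genes, the list of Cdk1, the share was 1 of 22 (4.55%), and for chromatin assembly genes 1 of 14 (7.14%). For ribosome biogenesis genes it was 1 of 34 (2.94%), and for mitochondrial ribosome genes 2 of 68 (2.94%). These shares count a match anywhere in a gene's full promoter entries, of which the sequences shown are the first 250 bases. A match describes letters and shows no binding.

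Chromatin assembly and mitosis genes gave medians of -0.07 and -0.14. In mean log2 CPM relative to the control mean, the assembly list lay at 0.003, -0.113 and -0.228 in hairpin 2 replicates 1 to 3. It lay at -0.219, -0.121 and -0.139 in the libraries labelled hairpin 1. The mitosis list lay at 0.057, -0.088 and -0.226 with hairpin 2 and at -0.344, -0.223 and -0.152 in the libraries labelled hairpin 1. Chaf1b, the middle subunit of the CAF-1 complex that sets new histones on copied DNA, had one of the smallest p-values. It stood at 113, 114 and 113 CPM in control and at 79.9, 64.6 and 68.6 CPM with hairpin 2 (log2 fold change -0.67, SE 0.12, edgeR unadjusted p = 0.000164). The histone chaperone gene Asf1b was lower as well, at 51.1, 58.2 and 56.5 CPM against 45.6, 39.8 and 39.2 CPM (-0.41, SE 0.11). These were the 2 of 15 assembly genes lower at an unadjusted p under 0.05, and 1 was higher; with the trend removed 4 were lower and 0 higher, with a median of -0.12. Among 28 mitosis genes, 6 were lower and 1 higher at that p; 3 were lower without replicate 3 of control, and without replicate 3 of hairpin 2 4 were lower and 5 higher. Cdk1, the kinase that starts mitosis, stood at 168, 169 and 176 CPM against 140, 130 and 133 CPM (-0.35, SE 0.08), and Plk1, a kinase of the spindle, at 162, 142 and 168 CPM against 129, 114 and 114 CPM (-0.40, SE 0.11). As counted, the most abundant members, Top2a and Mki67, went the other way without reaching that p. Top2a, the topoisomerase that untangles chromosomes, stood at 498, 502 and 525 CPM against 649, 589 and 493 CPM (0.18, SE 0.12, edgeR unadjusted p = 0.166), and Mki67, the proliferation marker Ki-67, at 256, 218 and 262 CPM against 414, 297 and 204 CPM (0.32, SE 0.26, edgeR unadjusted p = 0.259). Both overlapped, with replicate 3 of hairpin 2 lowest of its group. With the trend removed, the log2 fold change was 0.01 for Top2a and -0.04 for Mki67. The mitosis list then had 6 members lower and 0 higher, with a median of -0.09. Clustered histone genes, most of whose transcripts lack a poly(A) tail, had a median of -0.57 over 17 tested of 70, with 3 lower, or 1 without replicate 1 of hairpin 2.

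The 15 lower genes of smallest p included several that are in none of the lists. Ung, the glycosylase that cuts uracil from DNA, stood at 32.5, 37.2 and 36.7 CPM in control and at 23.8, 21.3 and 18.5 CPM with hairpin 2 (-0.74, SE 0.14, edgeR unadjusted p = 0.000301). Chtf18, which loads PCNA for sister chromatid cohesion, stood at 39.4, 43.8 and 47.2 CPM against 28.1, 29.0 and 31.6 CPM (-0.56, SE 0.11). Cdca8, part of the chromosomal passenger complex, stood at 78.5, 80.1 and 85.6 CPM against 62.9, 59.5 and 56.0 CPM (-0.45, SE 0.10). Prmt5, an arginine methyltransferase, stood at 132, 119 and 128 CPM against 98.8, 88.7 and 90.6 CPM (-0.45, SE 0.09). All 15 had groups that did not overlap, against 10.2% of all genes lower without overlap. They had an edgeR adjusted p of 0.241 each. They kept an unadjusted p under 0.05 with each library left out in turn and with the trend removed. Being picked by smallest p in these same libraries made the lack of overlap and the kept p likely for these 15 genes. Their median transcript length was 2512 bases. Beside Chaf1b, Ung, Chtf18, Cdca8 and Prmt5 they were Timm50, C030006K11Rik, Wtip, Sf3b4, Smtn, Eva1b, Htra2, Myg1, Klf16 and Gadd45gip1. Exons of C030006K11Rik and Myg1 overlap another gene on the same strand, and those of Sf3b4, Smtn, Htra2, Chtf18, Cdca8 and Gadd45gip1 one on the opposite strand.

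Genes for making and importing mitochondrial proteins stood lower with hairpin 2 on the median. Of the 77 tested genes of the mitochondrial ribosome, 72 had a negative log2 fold change, 39 had groups that did not overlap, and 26 were at an unadjusted p under 0.05, all lower, with a median of -0.22. Mrps11, of its small subunit, stood at 37.9, 39.7 and 43.2 CPM in control and at 30.3, 28.6 and 30.8 CPM with hairpin 2 (-0.43, SE 0.10, edgeR unadjusted p = 0.00188). Mrpl12, of the large subunit, stood at 138, 146 and 160 CPM against 112, 109 and 119 CPM (-0.39, SE 0.12). With the trend removed, 16 members were lower and the median was -0.17. The count was 13 without replicate 3 of control, 17 without replicate 1 of hairpin 2 and 14 without replicate 2 of hairpin 2. Of the 24 import genes, 8 were lower and 0 higher, with a median of -0.19; with the trend removed 6 were lower and 1 higher, with a median of -0.14. Timm50, the receptor that hands proteins to the channel of the inner membrane, had the smallest p of all lower genes. It stood at 124, 125 and 131 CPM in control and at 92.0, 80.1 and 88.0 CPM with hairpin 2 (-0.55, SE 0.09, edgeR unadjusted p = 0.000156), below the 127, 118 and 114 CPM of the libraries labelled hairpin 1. Tomm40, the pore of the outer membrane, stood at 152, 161 and 168 CPM against 130, 115 and 125 CPM (-0.38, SE 0.09). The import count was 2 without replicate 3 of control and 3 without replicate 1 or replicate 2 of hairpin 2.

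For the respiratory chain itself the count was nearer the background. Of 73 nuclear genes of oxidative phosphorylation, 65 had a negative log2 fold change and 7 were lower at an unadjusted p under 0.05, against 6.27% of all genes, with a median of -0.16 that was -0.04 with the trend removed. Without replicate 3 of hairpin 2, 24 were lower, and without replicate 1 of control 12 were. Without replicate 2 or 3 of control or replicate 1 or 2 of hairpin 2, 0 to 3 were. Cyc1, the cytochrome c1 of complex III, stood at 383, 452 and 430 CPM in control and at 324, 276 and 374 CPM with hairpin 2 (-0.38, SE 0.13). The 13 tested genes of the mitochondrial genome had 0 members at that p in either direction.

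The medians of ribosome assembly, splicing and proteasome genes were below 0, with different shares of members at an unadjusted p under 0.05. Of 38 ribosome biogenesis genes, 14 were lower and 0 higher at an unadjusted p under 0.05, with a median of -0.20; with the trend removed, 13 were lower. Pes1, needed to mature the large ribosomal subunit, stood at 180, 183 and 178 CPM in control and at 136, 137 and 147 CPM with hairpin 2 (-0.37, SE 0.08, edgeR unadjusted p = 0.00122). Nop56, a core protein of the particles that methylate ribosomal RNA, stood at 167, 182 and 183 CPM against 135, 109 and 131 CPM (-0.50, SE 0.12). Genes of the cytosolic ribosome itself did not show this: 2 of 76 were higher and 0 lower, with a median of -0.02. With the trend removed the median was 0.11 and 14 were higher. As counted, the median was 0.01 without replicate 1 of control and 0.04 without replicate 1 of hairpin 2. The sign of that list thus depends on the trend and on single libraries. Of 36 splicing factors, 26 had a log2 fold change below 0, with a median of -0.10, and 5 were lower, or 3 without replicate 3 of control. Sf3b4, of the complex that holds the branch point, stood at 161, 168 and 173 CPM against 120.0, 120 and 122 CPM (-0.47, SE 0.09), and the 3 hairpin 2 libraries differed by less than 3 CPM. Of 34 proteasome subunits, 33 had a negative log2 fold change and 15 were lower, with a median of -0.21. Psmb3, of the catalytic core, stood at 195, 182 and 207 CPM against 140, 133 and 167 CPM (-0.41, SE 0.11). The proteasome count was 3 with the trend removed. It was 4 without replicate 3 of control, 5 without replicate 1 of hairpin 2 and 4 without replicate 2 of hairpin 2.

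Cholesterol synthesis genes stood lower on the median. Of 25 lipid synthesis genes, 6 were lower and 0 higher at an unadjusted p under 0.05, with a median of -0.20, and 6 with the trend removed. Fdft1, the squalene synthase, stood at 92.0, 118 and 139 CPM in control and at 82.0, 83.3 and 76.0 CPM with hairpin 2 (-0.53, SE 0.15, edgeR unadjusted p = 0.00421). Mvk, the mevalonate kinase, stood at 49.3, 49.2 and 67.3 CPM against 38.6, 37.9 and 40.3 CPM (-0.51, SE 0.13). Leaving out replicate 3 of control, the highest library for both genes, left 2 of the 25 lower, and leaving out replicate 2 of hairpin 2 left 3. Exons of Fdft1 overlap those of Ctsb on the opposite strand.

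**Figure D3:**
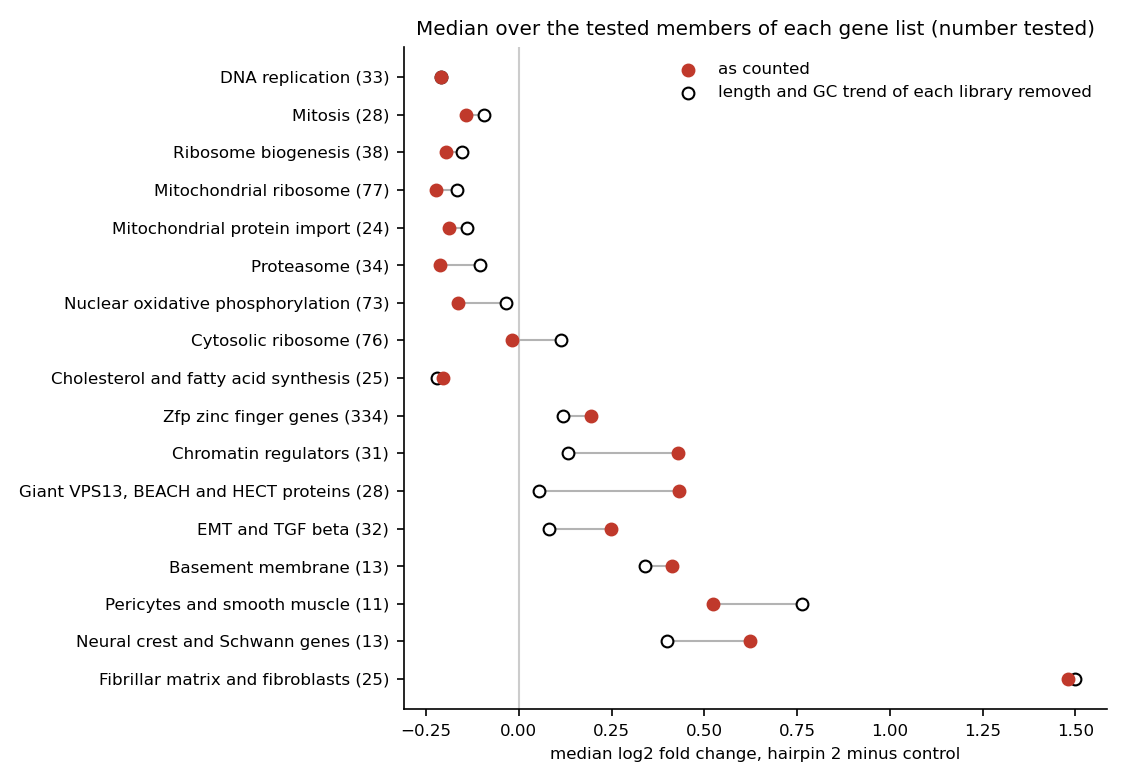
Median log2 fold change of hairpin 2 minus control over the tested members of 17 gene lists, as counted (filled) and with each library's length and GC trend removed (open). The replication median is -0.21 in both; that of the giant proteins goes from 0.43 to 0.05 and that of the cytosolic ribosome from -0.02 to 0.11.

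Single genes of stress signalling and pigment transport stood higher, while the medians of both lists lay near that of all genes. Crebrf, which encodes a regulator of the CREB3 factors of the endoplasmic reticulum stress response, had the smallest p of all genes. It stood at 20.8, 21.6 and 20.6 CPM in control and at 44.2, 49.0 and 34.9 CPM with hairpin 2, with no overlap (log2 fold change 1.02, SE 0.17, 95% interval 0.65 to 1.40; edgeR unadjusted p = 0.000107). In the libraries labelled hairpin 1 it stood at 25.6, 34.6 and 24.1 CPM, below each hairpin 2 library. Atf6, a stress sensor of the same membrane, stood at 91.9, 100.3 and 85.8 CPM against 138, 152 and 125 CPM (0.58, SE 0.12). The co-chaperone gene Dnajb9, a target of that response, stood at 27.3, 25.4 and 25.9 CPM against 38.6, 36.4 and 37.2 CPM (0.51, SE 0.18). Of 27 stress genes, 8 were higher and 0 lower at an unadjusted p under 0.05, with a median of 0.07 and 10 members below 0. The chaperone Hspa5, the most abundant of the response, overlapped, at 1270, 1312 and 1182 against 1335, 1181 and 1434 CPM. With the trend removed 4 were higher, and the fold of Crebrf was 0.66 and that of Atf6 0.30. The stress count was 5 without replicate 2 of control, 3 without replicate 3 of control and 4 without replicate 2 of hairpin 2.

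In pigment cells, melanosomes travel along actin on a bridge of Rab27a, melanophilin and myosin Va. Myo5a, encoding that myosin, stood at 413, 405 and 360 CPM in control and at 642, 783 and 612 CPM with hairpin 2 (0.79, SE 0.14, 95% interval 0.47 to 1.11; edgeR unadjusted p = 0.00025). The lowest hairpin 2 library was far above the highest control, and the libraries labelled hairpin 1, at 329, 446 and 457 CPM, were below it too. Rab27a, the GTPase of the bridge, stood at 257, 244 and 204 CPM against 309, 350 and 314 CPM (0.46, SE 0.11). Lyst, which sets the size of lysosome-like organelles, stood at 85.5, 88.9 and 65.7 CPM against 125, 149 and 118 CPM (0.71, SE 0.18). Of 18 tested transport genes, 4 were higher and 1 lower at an unadjusted p under 0.05, with a median of 0.06 and 8 members below 0. With the trend removed, 2 were higher and 0 lower, and Myo5a was higher by 0.41, Rab27a by 0.48 and Lyst by 0.32. The melanin list had a median of -0.05, and 1 of 15 members was at that p, the copper transporter gene Atp7a, at 90.5, 69.9 and 69.2 CPM against 116, 162 and 117 CPM (0.78, SE 0.31, edgeR unadjusted p = 0.0345). Tyr, the rate-limiting enzyme of melanin synthesis, stood at 566, 737 and 662 CPM against 754, 827 and 776 CPM (0.26, SE 0.13, edgeR unadjusted p = 0.0733), without overlap. Among the lineage regulators, the endothelin receptor gene Ednrb stood at 7.34, 3.59 and 6.13 CPM against 14.3, 28.5 and 8.04 CPM (1.57, SE 0.45, edgeR unadjusted p = 0.00607), and the receptor kinase gene Met at 1420, 1905 and 1511 CPM against 1924, 2217 and 2309 CPM (0.42, SE 0.13). Of 13 neural crest and Schwann cell genes, 5 were higher and 0 lower, with a median of 0.62, and none had groups without overlap; with the trend removed 3 were higher, with a median of 0.40. The cadherin gene Cdh19 stood at 29.9, 32.7 and 29.0 CPM against 55.5, 46.8 and 32.6 CPM (0.56, SE 0.18). Gfra1, a neurotrophic factor receptor in the same list, was high in replicate 3 of hairpin 2 alone, at 7.61 CPM against 0.179 to 0.477 CPM in the other 5. The crest median was 0.28 without replicate 3 of hairpin 2, and 2 or 3 members were higher with each of the 6 libraries left out.

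Lists of genes with long transcripts stood higher on the median. Of 28 genes for giant VPS13, BEACH, HECT and cytoskeletal linker proteins (median transcript length 14460 bases), all 28 had a positive log2 fold change and 20 were higher at an unadjusted p under 0.05, with a median of 0.43. With the trend removed, 7 were higher and the median was 0.05. Vps13c, a lipid transfer protein of organelle contacts, stood at 67.5, 59.3 and 60.3 CPM in control and at 92.9, 92.5 and 92.8 CPM with hairpin 2 (0.57, SE 0.11, edgeR unadjusted p = 0.000404; 0.21 with the trend removed). Utrn, the dystrophin relative utrophin, stood at 129, 105 and 105 CPM against 206, 188 and 142 CPM (0.66, SE 0.17; 0.29 with the trend removed). The giant protein count was 12 without replicate 2 of control, 13 without replicate 3 of control and 14 without replicate 2 of hairpin 2.

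Chromatin regulators stood higher as well. Of 31, 15 were higher and 0 lower, with a median of 0.43, and with the trend removed 5 were higher with a median of 0.13. Chd9, a chromatin remodeller, stood at 42.2, 36.3 and 38.1 CPM against 70.1, 67.3 and 70.7 CPM (0.84, SE 0.19, edgeR unadjusted p = 0.00116; 0.47 with the trend removed). Kmt2c, a methyltransferase of histone H3 at enhancers, stood at 30.9, 25.0 and 25.6 CPM against 45.6, 61.1 and 41.1 CPM (0.86, SE 0.21; 0.47 with the trend removed). The abundant remodeller Chd4 overlapped, at 631, 600.0 and 656 against 634, 727 and 718 CPM (0.14, SE 0.10). The regulator count was 24 without replicate 1 of control, 5 without replicate 2 of control, 8 without replicate 3 of control, 9 without replicate 1 of hairpin 2 and 7 without replicate 2 of hairpin 2. Of 334 Zfp zinc finger genes, 46 were higher and 7 lower, with a median of 0.20, and with the trend removed 22 and 4. The higher count was 55 without replicate 3 of hairpin 2, and between 11 and 22 without replicate 2 or 3 of control or replicate 1 or 2 of hairpin 2.

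The 15 higher genes of smallest p were Crebrf, Myo5a, Med13, Ebf2, Zbtb20, Vps13c, Tanc2, Ubn2, Tgfbr1, Zbtb38, Pcnx, Plekhg1, Msi2, Hspg2 and Washc4. All 15 had groups without overlap, against 10.6% of all genes higher without overlap, and an edgeR adjusted p of 0.241 each. All had an unadjusted p under 0.05 with each library left out in turn, and 14 kept that p with the trend removed, Med13 being the exception. Here too the pick by smallest p in these same libraries made the lack of overlap and the kept p likely. Exons of Zbtb20, Ubn2 and Pcnx overlap another gene on the same strand, and those of Med13, Ebf2 and Zbtb20 one on the opposite strand. Their median transcript length was 10546 bases. Ebf2, a factor of mesenchymal and fat cell precursors, rested on few reads: 0, 2 and 1 counts in control, 19, 28 and 13 with hairpin 2, and 11, 15 and 8 in the libraries labelled hairpin 1. Ubn2, of a histone H3.3 chaperone complex, stood at 53.7, 46.8 and 42.4 CPM in control and at 81.6, 100.1 and 69.5 CPM with hairpin 2 (0.81, SE 0.16). Zbtb20, a zinc finger repressor, stood at 45.2, 38.1 and 37.1 CPM against 77.5, 67.6 and 58.4 CPM (0.76, SE 0.14). With the trend removed, the log2 fold change was 0.40 for Ubn2 and 0.35 for Zbtb20.

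Genes of the extracellular matrix stood higher with hairpin 2 on the median, with wide spread between its libraries. All 25 genes of the fibrillar matrix and fibroblast list had a positive log2 fold change, 6 were higher at an unadjusted p under 0.05 and the median was 1.48; with the trend removed 3 were higher, with a median of 1.499. The list's mean log2 CPM lay 0.28, 1.25 and 2.46 above the control mean in hairpin 2 replicates 1, 2 and 3, and at -0.34, 0.66 and -0.31 in the controls, so replicate 1 of hairpin 2 lay below replicate 2 of control. Without replicate 3 of hairpin 2 the median was 0.86 and 3 members were higher, and 3 were higher without replicate 3 of control. Elastin (Eln), the protein of elastic fibres, gave 10, 6 and 15 counts in control and 15, 124 and 244 with hairpin 2, overlapping in counts, or 0.597, 0.392 and 0.892 against 0.941, 7.39 and 14.9 CPM (3.60, SE 0.87, edgeR unadjusted p = 0.00238). Fap, the protease of activated fibroblasts, stood at 0.179, 0.196 and 0.238 CPM against 0.314, 1.43 and 1.52 CPM (2.37, SE 0.71). The most abundant members did not reach that p. Col1a1, which encodes the alpha 1 chain of collagen I, stood at 95.6, 207 and 72.9 CPM against 124, 158 and 586 CPM (1.21, SE 1.07, edgeR unadjusted p = 0.294), and fibronectin (Fn1) at 183, 198 and 98.5 CPM against 248.7, 228 and 557 CPM (1.11, SE 0.59, edgeR unadjusted p = 0.0984). The libraries labelled hairpin 1 stood in this list at 2.92, 0.38 and 1.29 above the control mean, so that 1 of them lay below replicate 2 of control.

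The medians of basement membrane and vessel wall genes lay above that of all genes. Hspg2, which encodes perlecan, stood at 186, 144 and 143 CPM in control and at 275, 348 and 259 CPM with hairpin 2 (0.90, SE 0.18, 95% interval 0.50 to 1.30; edgeR unadjusted p = 0.000522; 0.61 with the trend removed). Of 13 basement membrane genes, 3 were higher and 0 lower at an unadjusted p under 0.05, with a median of 0.41 (2 higher and 0.34 with the trend removed); the median was 0.16 without replicate 2 of hairpin 2, and 6 were higher without replicate 1 or without replicate 3 of hairpin 2. Timp3, an inhibitor of matrix proteases from another list, stood at 12.9, 10.4 and 8.69 CPM against 16.2, 51.5 and 28.4 CPM (1.59, SE 0.39). Of 11 pericyte genes, 4 were higher, with a median of 0.52 (4 and 0.76 with the trend removed). Notch3, the Notch receptor of mural cells, stood at 8.59, 16.1 and 12.3 CPM against 18.3, 62.2 and 21.3 CPM (1.46, SE 0.48), highest in replicate 2. The channel gene Kcnj8 stood at 3.998, 5.62 and 2.32 CPM against 7.03, 13.8 and 6.88 CPM (1.22, SE 0.36). Of 21 endothelial genes, 4 were higher and 2 lower, with a median of 0.40 that was 0.06 without replicate 2 of hairpin 2; with the trend removed 3 were higher and 0 lower. The receptor gene Tie1 stood at 12.7, 13.7 and 12.7 CPM against 15.4, 30.4 and 21.4 CPM (0.78, SE 0.24), while endoglin (Eng), the most abundant of the list, stood at 429, 471 and 461 CPM against 342, 289 and 431 CPM (-0.36, SE 0.14). The endothelial count of higher genes was 10 without replicate 1 of hairpin 2 and 2 without replicate 2 of hairpin 2, replicate 1 of control or replicate 3 of control. In mean log2 CPM relative to the control mean, the basement membrane list lay at 0.310, -0.021 and 0.372 in the libraries labelled hairpin 1. The pericyte list lay at 0.719, 0.102 and 0.537 there, and the endothelial list at 0.591, 0.068 and 0.439. Levels above the control mean in these lists were thus not particular to hairpin 2.

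Among TGF beta family and epithelial to mesenchymal transition genes, 9 of 32 were higher and 0 lower at an unadjusted p under 0.05, with a median of 0.25 that was 0.08 with the trend removed, when 6 were higher. Tgfbr1, the type I receptor kinase for TGF beta, stood at 41.6, 41.6 and 37.0 CPM in control and at 61.3, 63.1 and 53.3 CPM with hairpin 2 (0.56, SE 0.11, 95% interval 0.32 to 0.81; edgeR unadjusted p = 0.000451; 0.33 with the trend removed). In the libraries labelled hairpin 1 it stood at 38.5, 43.2 and 42.1 CPM, below each hairpin 2 library. The co-receptor gene Tgfbr3 stood at 3.22, 3.01 and 2.86 CPM against 5.40, 6.44 and 7.55 CPM (1.09, SE 0.28). Snai1, the Snail repressor of E-cadherin, gave 15, 14 and 8 counts against 30, 51 and 52 (log2 fold change 1.82, SE 0.44, edgeR unadjusted p = 0.00184), and 82, 39 and 40 in the libraries labelled hairpin 1. Vimentin (Vim), the most abundant of the list, overlapped, at 1787, 2109 and 1628 against 1829, 1633 and 2192 CPM (0.03, SE 0.15). The count was 6 without replicate 2 of control and 6 without replicate 2 of hairpin 2.

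On the median, genes of interferon signalling and antigen display stood lower with hairpin 2, with its replicate 2 the lowest of the 6 libraries and its replicate 3 above the control mean. All 31 type I interferon response genes had a fold change below 0, with a log2 median of -0.59, and 1 was lower at an unadjusted p under 0.05. Their mean log2 CPM lay at -0.98, -1.91 and 0.30 relative to the control mean in hairpin 2 replicates 1, 2 and 3, and at -0.08, 0.48 and -0.40 in the controls. Without replicate 2 of hairpin 2 the median was -0.28, and without replicate 3 it was -1.44 with 19 members lower. That 1 member was Mx2, a GTPase gene of the interferon response, at 4.66, 3.202 and 4.16 CPM in control and 1.57, 0.775 and 2.19 CPM with hairpin 2 (-1.40, SE 0.47, edgeR unadjusted p = 0.0134). Bst2, the tether that holds budding viruses, overlapped, at 196, 318 and 182 against 114, 51.4 and 257 CPM (-0.72, SE 0.56). Interferon gamma genes had 0 of 21 at that p and a median of -0.53, which was -0.01 without replicate 2 of hairpin 2. Cxcl10, the chemokine that draws T cells, did not overlap, at 50.9, 72.0 and 42.2 CPM against 30.2, 4.12 and 29.4 CPM (-1.37, SE 0.75, edgeR unadjusted p = 0.109). MHC class I genes had 0 of 22 and a median of -0.38, which was 0.03 without replicate 2 of hairpin 2; B2m, the light chain of class I, stood at 1022, 1284 and 854 CPM against 805, 217 and 1231 CPM.

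The Bst2 promoter is shown for the letters of the interferon-stimulated response element, the motif that interferon-activated factors are known to bind. It lies at chr8:71537473-71537722 (minus strand; RefSeq, GRCm38.p6), and the capitals mark 2 overlapping matches of the element, read as GAAA, any 2 bases and GAAA.
Bst2: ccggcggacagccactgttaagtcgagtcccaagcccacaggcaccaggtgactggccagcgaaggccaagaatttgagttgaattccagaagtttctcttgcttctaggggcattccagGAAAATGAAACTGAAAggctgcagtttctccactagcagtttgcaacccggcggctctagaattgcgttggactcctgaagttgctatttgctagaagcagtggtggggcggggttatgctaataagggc
Of 22 type I interferon genes with a promoter sequence, 13 (59.1%) held the motif on either strand. The count was 388 of 10278 tested genes (3.78%) and 0 of 26 replication genes. A match anywhere in the full promoter entries was counted here too.

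**Figure D4:**
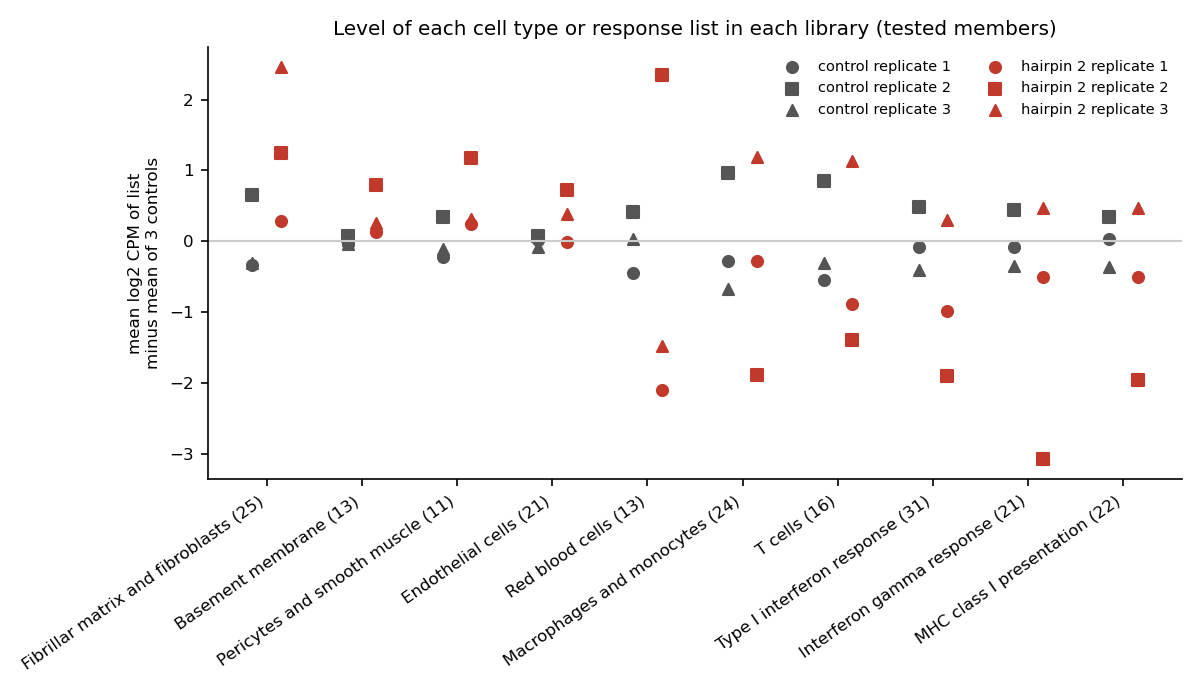
Mean log2 CPM of each list relative to the mean of the 3 controls (vertical axis), with 1 symbol per library of the control and hairpin 2 groups. Replicate 2 of hairpin 2 is lowest of the 6 in the interferon, MHC, T cell and macrophage lists and highest in the red blood cell list, while replicate 3 is highest in the matrix list.

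Markers of immune cells were uneven between libraries, low for T cells and cytotoxic cells and more abundant for macrophages. T cell genes summed to 25.2, 55.9 and 24.8 CPM in control and to 19.96, 23.4 and 66.2 CPM with hairpin 2, and macrophage genes to 1543, 2227 and 1746 CPM against 1416, 1041 and 2511 CPM; 0 of 16 and 0 of 24 members were at an unadjusted p under 0.05. Of 10 tested genes of cytotoxic cells, 0 were at that p; the granzyme gene Gzmb stood at 2.15, 12.1 and 1.37 CPM against 1.57, 0.119 and 4.57 CPM. Pdcd1, which encodes the Fbxo38 target PD-1 and was named after its values were seen, stood at 0.597, 4.90 and 0.476 CPM against 0.439, 0.179 and 4.57 CPM (log2 fold change -0.19, SE 1.25), so a difference in either direction was not detectable. Red blood cell genes summed to 2772, 5296 and 2860 CPM in control and to 628, 22300 and 777 CPM with hairpin 2. Their median log2 fold change was 1.05 with replicate 2 of hairpin 2 and -2.33 without it, when 10 of 13 were lower. In the same library the interferon and class I lists were lowest and the pericyte list highest of the 6; the part of blood or host cell content in these differences was not tested.

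For the SCF machinery and a short list of genes linked to Fbxo38, not all of them its partners, the counts at an unadjusted p under 0.05 were low. Of 14 tested SCF genes, 1 was higher and 0 were lower at an unadjusted p under 0.05, with a median of 0.06 that was -0.05 with the trend removed; the scaffold gene Cul1 stood at 162, 176 and 192 CPM in control and at 187, 190.0 and 166 CPM with hairpin 2 (0.03, SE 0.10). Klf7, the partner factor, stood at 8.47, 12.4 and 7.61 CPM against 11.7, 17.5 and 10.7 CPM (0.49, SE 0.24, edgeR unadjusted p = 0.0736). The cell cycle inhibitor gene Cdkn1a stood at 124, 206 and 168 CPM against 150, 84.3 and 105 CPM (-0.55, SE 0.26).

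The remaining lists are given by their counts at an unadjusted p under 0.05, to be read beside 8.14% of all genes higher and 6.27% lower. DNA repair genes had 2 higher and 5 lower (21.7%) of 23, with a median of -0.03. Xrcc6, the Ku70 end-binding protein, stood at 103, 110 and 98.4 CPM in control and at 83.6, 85.6 and 85.2 CPM with hairpin 2 (-0.29, SE 0.09), while the damage kinase gene Atm stood at 44.2, 37.3 and 42.1 CPM against 66.9, 57.2 and 50.8 CPM (0.50, SE 0.15). With the trend removed 0 repair genes were higher and 7 lower; as counted, 1 was lower without replicate 3 of control or without replicate 3 of hairpin 2, 2 without replicate 2 of control and 3 without replicate 2 of hairpin 2. Cell cycle regulators had 2 higher and 4 lower (21.1%) of 19, and 0 and 3 with the trend removed; 2 were lower without replicate 2 or replicate 3 of hairpin 2. The tRNA synthetases had 0 higher and 4 lower (20%) of 20, and 1 lower with the trend removed; 2 were lower without replicate 2 or 3 of control or replicate 2 of hairpin 2. The p53 target list had 2 higher and 1 lower of 19, the Bcl2 family 1 and 1 of 16, MAP kinase outputs 0 and 3 of 22, and heat shock genes 2 and 0 of 22. Lysosome genes gave 3 and 1 of 33, and glycolysis genes 1 and 2 of 27. Matrix proteases and their inhibitors gave 3 and 0 of 22, melanocyte lineage regulators 2 and 1 of 14, and checkpoint receptors and ligands 2 and 1 of 17. Chemokines gave 1 and 0 of 21, immediate early genes 0 and 1 of 20, and nuclear noncoding RNAs 0 and 1 of 12. None of the tested MHC class II, neutrophil, dendritic, B cell, skeletal muscle, adipocyte, keratinocyte or Fbxo38-linked genes reached that p in the fit of all libraries.

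Of genes without overlap that averaged at least 5 CPM over the 6 libraries, the 6 largest differences in each direction follow. Lox, Srp54b, Col12a1, Gpx3 and Steap4 averaged 1.30, 2.49, 4.37, 3.48 and 3.41 CPM in control. They met the limit only through the hairpin 2 libraries, so the limit itself favoured large differences on the higher side. On the higher side stood Lox, which crosslinks collagen, at 0.418, 3.14 and 0.357 CPM in control and 4.39, 3.64 and 28.3 CPM with hairpin 2 (3.24, SE 1.72, edgeR unadjusted p = 0.101), highest in replicate 3 of hairpin 2, followed by Srp54b, Col12a1, Gpx3, Steap4 and Timp3. Srp54b stood at 3.94, 2.81 and 0.714 CPM against 19.1, 26.0 and 8.04 CPM (2.83, SE 0.81) and has near-identical copies, so its reads may be shared with them. On the lower side stood Cxcl10, Hcn2, Osgin1, Agt, Gm10241 and Cp. Hcn2, a pacemaker channel, stood at 13.4, 33.6 and 27.5 CPM against 12.3, 7.81 and 12.7 CPM (-1.18, SE 0.36, edgeR unadjusted p = 0.00868). Agt, the angiotensin precursor, stood at 42.5, 36.3 and 28.9 CPM against 26.0, 9.60 and 15.5 CPM (-1.08, SE 0.31).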

How the data were processed

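RNA from B16-F10 tumours was sequenced as 9 libraries. The authors deposited whole-number counts per gene symbol; per the submitters' processing notes the tools were STAR 2.7.0d and Cufflinks, and the builds named are human (GRCh38, hg38) while the symbols are mouse. How genes were counted (program, annotation, strand) is not given in the sources used here, so overlapping genes cannot be told apart: exons of 117 of 334 genes open to naming overlap another gene in GENCODE M21. Depth (15322163 to 17342554 counts per library) sets the counting precision.

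Counts were tested with edgeR 4.0.16 (R 4.3.3): genes were kept by filterByExpr on the groups (at least 10 counts, total of 15), scaled by TMM, and fitted with the robust quasi-likelihood model over 9 libraries in 3 groups. The contrast was hairpin 2 minus control, with Benjamini-Hochberg adjustment and a threshold of 0.05. CPM use TMM-scaled library sizes. Length and GC come from the longest GENCODE M21 transcript per symbol (99.3% of tested genes); trends were fitted per library with mgcv 1.9.3. Steps were tested on simulated data.

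The comparison and the 56 gene lists were chosen with earlier results of these data known, so lists are described by counts and medians. Named were Fbxo38 to Fbxo43 and the 15 smallest p-values a direction. So were the 6 largest changes a direction without overlap and with a mean of at least 5 CPM over the 6 libraries. Per list, the 3 most abundant members and the 3 of smallest p were named. Alternatives were other scalings and filters, DESeq2 1.42.0, limma-voom (limma 3.58.1), a fit of 6 libraries, a replicate block, the trend removed and libraries left out.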

Additional observations from a re-analysis of the deposited data

How the results depend on the processing

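The count of genes past an adjusted p of 0.05 was 4 without a filter on low counts, 303 with DESeq2, 0 to 2 with each library left out in turn and 0 under the other alternatives; the cause was not tested. The count of higher genes at an unadjusted p under 0.05 was 678 after removal of the length and GC trend and 579 to 1305 with each library left out, and that of lower genes was 484 to 1150. Upper-quartile scaling gave 1010 higher and 1152 lower genes, with a median over all genes of -0.019 against 0.012. The log2 fold change of Fbxo38 ranged from -1.26 to -0.77 with each library left out and kept its sign and its side of the threshold throughout. The medians of the replication, mitochondrial ribosome, import, ribosome biogenesis, proteasome, matrix, giant protein and chromatin regulator lists kept their sign under each alternative. Those of the cytosolic ribosome, macrophage, T cell and red blood cell lists did not.

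Whether replicate numbers pair the samples could not be decided. The correlation of deviations within a number was 0.088, -0.271 and -0.280, and the highest correlation, 0.370, joined different numbers. Deviations from the mean of so small a group are tied to each other, so these values cannot exclude pairing. With a replicate block, 0 genes passed, 828 were higher and 670 lower, and Fbxo38 stood at -1.0. With the block and the trend removed, 456 were higher and 493 lower.

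Of 333 single genes named by rule, Fbxo38 aside, 66 passed an adjusted p of 0.05 with DESeq2. DESeq2 called 2.13% of all tested genes. Without a filter on low counts 4 passed in edgeR. Many of the named genes were picked by smallest p in these same libraries, which made such a pass likely. Depth limits genes of few counts, such as Ebf2, Fap and Pdcd1.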
